A study of Mus musculus with 35 samples.

Results

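Ageing of wild-type (WT) gastrocnemius, the large fast-contracting muscle of the calf, was followed in 12 of the 35 RNA sequencing libraries of the series. Of these 12 libraries, 6 came from male WT mice of 24 months and 6 from male WT mice of 3 months, and they are called old and young libraries below. RNA was taken from the whole muscle, so a level combines the fibres with vessels, nerve, connective tissue and blood. Libraries were placed in groups by the column names of the deposited table. Those names carry no age: the prefix WT_ was taken as 3 months and WSO_ as 24 months, and every age comparison below rests on that reading. The other libraries, used here only for a closing comparison of age effects, came from male mice of the same ages with a PGC-1α knockout (mKO, n = 5 at 3 months and n = 6 at 24 months) or a PGC-1α transgene (mTG, n = 6 at each age). Strain, Cre line, transgene promoter and any treatment are not given in the sources used here. The columns of the other genotypes begin with MKO_ and MCK_, taken as mKO and mTG, with SO for 24 months. The series' design text calls the libraries of a group biological replicates without naming animals, and the p-values measure the spread between these libraries.

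Skeletal muscle of old mammals loses mass and force, fast glycolytic fibres are affected more than slow ones, and some fibres lose contact with their motor nerve and switch on genes that are silent in innervated muscle. Calcium released from the sarcoplasmic reticulum triggers contraction and is pumped back by the SERCA pumps, which small membrane peptides restrain. PGC-1α, a coactivator encoded by Ppargc1a, drives mitochondrial biogenesis in fibres and responds to contraction.

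Values were deposited as TPM (transcripts per 1000000, shares of a fixed total). Read depth is therefore not known here, and the errors given are those between libraries. The makeup of the total differed with age. Nuclear rRNA genes took 0.155% to 0.479% of TPM in young libraries (median 0.204%) and 5.34% to 12.6% in old ones (median 10.9%), a log2 difference of 5.37 (2-sided exact permutation test, p = 0.00216, the smallest that 6 against 6 libraries allow). In a fixed total, a larger share of one class leaves less for the rest. In the deposited values the median nuclear protein-coding gene moved by -0.24 on the log2 scale. Each library was divided by its median-of-ratios factor, after which the median change was -0.0056. All levels below are these scaled TPM, and changes are differences of mean log2(scaled TPM + 1), given with their standard error (SE), so they understate the change of genes near or below 1 TPM. Pearson correlations between libraries on this scale were 0.988 to 0.992 among young, 0.986 to 0.990 among old and 0.975 to 0.984 between young and old libraries. The first principal component held 38.0% of the variance and separated all 6 old from all 6 young libraries. On the second component, which held 9.77%, the old library WSO_27 stood at -19.9, with the other 11 libraries between -8.10 and 7.83. It also had the lowest rRNA share of the old libraries, 5.34%. Changes also varied with transcript length: the median change was 0.20 in the decile of genes with the shortest transcripts and -0.020 in the decile with the longest, with a low of -0.066 in the eighth. Ppargc1a, the targeted gene, measured 3.79 to 15.2 over all WT libraries, 4.44 to 10.6 in the libraries labelled mKO and 64.0 to 112 in mTG, so it was high in mTG and not lower in the libraries labelled mKO. At 24 months it was higher in the libraries labelled mKO, at 6.28 to 10.6 against 3.79 to 4.69 in WT. At 3 months the ranges overlapped, at 4.44 to 10.5 against 4.82 to 15.2. The labels were kept, and every direction given for the libraries labelled mKO rests on them.

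**Figure D1:**
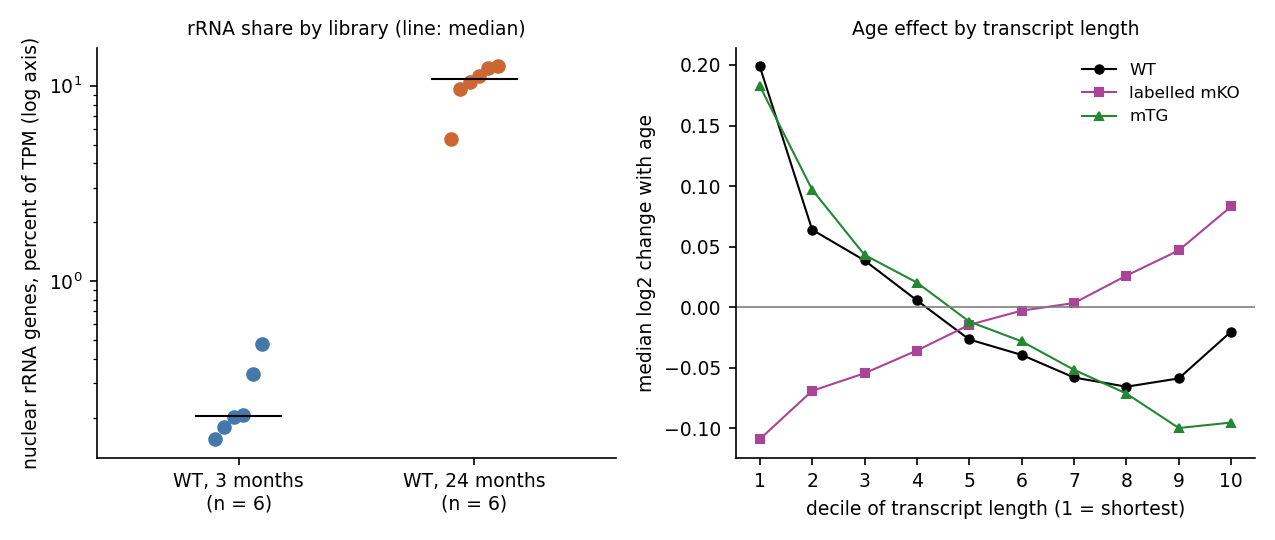
Left, percent of TPM in nuclear rRNA genes in each WT library on a log axis, with the median as a line; the 6 old libraries lie between 5.34% and 12.6% and the 6 young ones between 0.155% and 0.479%. Right, median log2 change with age of nuclear protein-coding genes in 10 deciles of transcript length for WT, libraries labelled mKO and mTG; in WT it goes from 0.20 in the shortest decile to -0.066 in the eighth and -0.020 in the longest.

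Of 10876 nuclear protein-coding genes tested, 1170 (10.8%) were higher and 1306 (12%) were lower in old WT muscle at an adjusted p under 0.05, 22.8% in all (limma over 12399 genes with Benjamini-Hochberg adjustment). A gene is called below when it passed this threshold. Each count of list members below is to be read beside these shares, 10.8% higher and 12% lower. In 816 genes (7.5%) all 6 old libraries lay above all 6 young ones, and in 728 (6.69%) all lay below. On unscaled TPM 290 genes (2.67%) were called higher and 5103 (46.9%) lower. All 1306 falls were also falls on unscaled TPM, and 288 of the 1170 rises were also rises there (2.65% of all genes tested). A rise therefore means a rise relative to the median gene. Scaling factors were 1.18 to 1.29 in young and 0.960 to 1.09 in old WT libraries, so changes lie lower on unscaled TPM. That all falls stayed falls there was largely set by this difference. With the trend on transcript length removed, 1073 genes were called higher and 1034 lower. With the rRNA share as a covariate 2 and 3 genes were called, in a fit where that share does not overlap between the WT ages and so cannot be told apart from age.

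The plot of largest changes by library shows genes whose young and old libraries were separated and whose mean was at least 5 scaled TPM at one age. Sln, Mss51, Ccl8, Kcnab1 and Cpne2 were among those with the largest rises. Slc25a25, Actc1 and the collagen chains Col1a1 and Col1a2 were among those with the largest falls. The rises of Lars2 and Aarsd1 were also large but involve sequence shared with another gene. Lars2, a mitochondrial leucyl-tRNA synthetase, was listed at 32.6 to 149 (median 53.4) in young and 2029 to 4365 (median 3752) in old libraries. Its longest transcript shares a stretch of 72 bases, 98.6% identical, with Gm15564, an antisense gene that moved by 5.76 ± 0.37, so the value of Lars2 is uncertain. Aarsd1, an alanyl-tRNA editing enzyme, measured 0.0418 to 3.71 (median 0.781) in young and 6.42 to 13.7 (median 11.2) in old libraries. It shares 82.7% of its longest transcript with the gene model Gm27029, which moved by -1.81 ± 0.32, so how reads were divided between them is uncertain. The values of Atp2a1, Ciart, Dbp, Gadd45a, Hspd1, Pkm and Vcl are less certain too, since each shares sequence or exons with another gene.

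**Figure D2:**
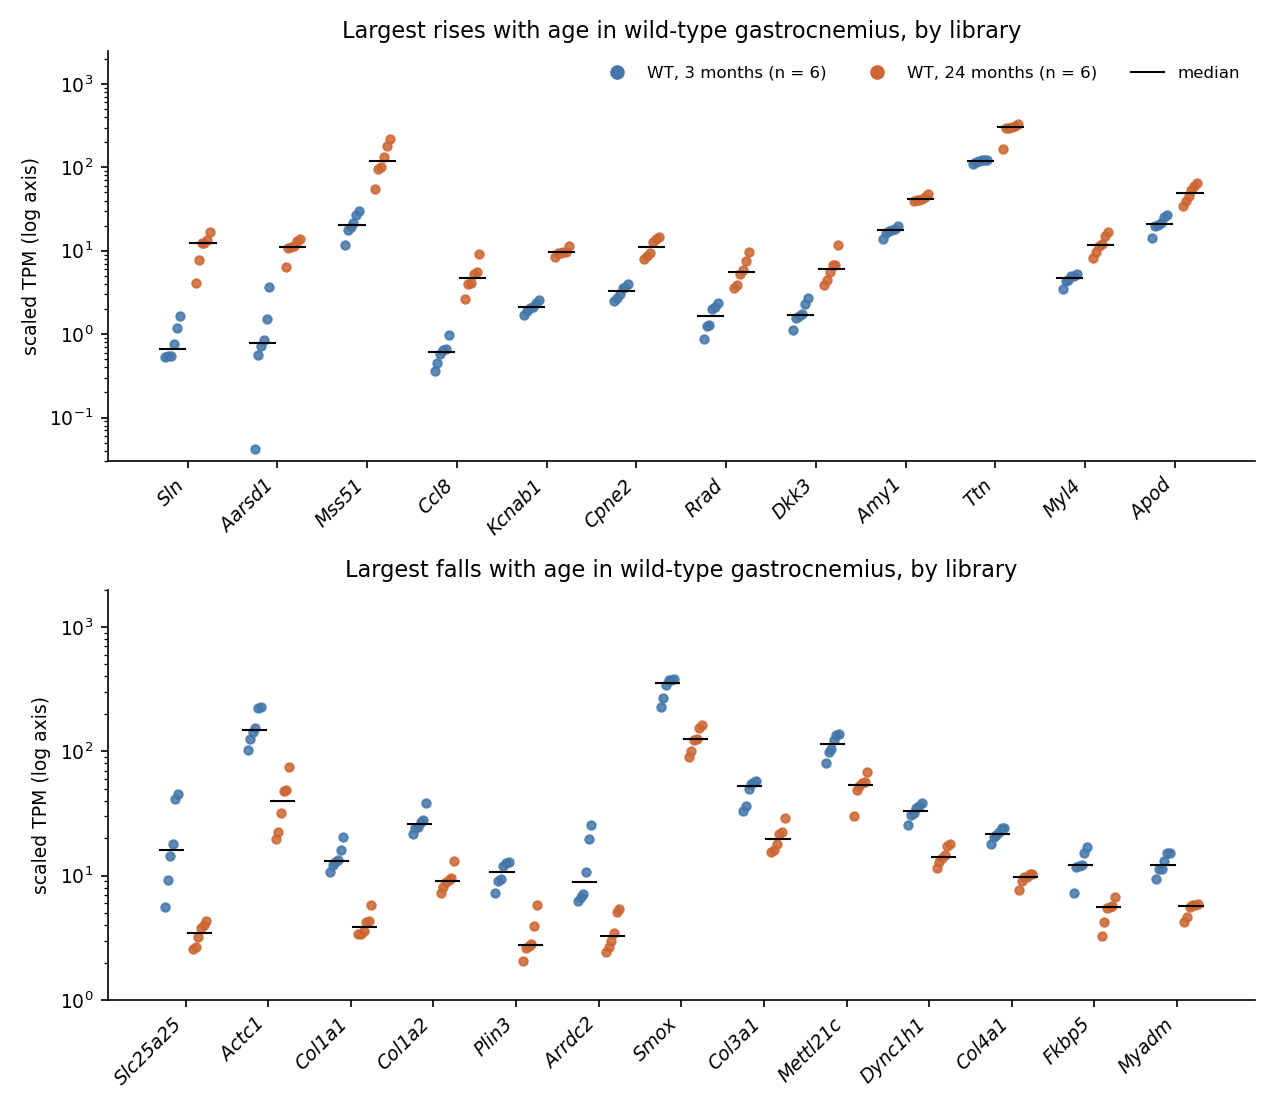
Scaled TPM of the genes with the largest separated rises (top) and falls (bottom) in each WT library, on log axes; points are libraries (blue, 3 months; orange, 24 months) and lines are medians. In every gene shown the 6 old libraries lie on one side of the 6 young ones.

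Calcium handling was led by Sln, which encodes sarcolipin, a peptide that binds SERCA and uncouples its ATP use from calcium transport. Sln (ENSMUSG00000042045, chromosome 9, 53850164 to 53854560, plus strand, GRCm38) measured 0.533 to 1.67 (median 0.662) in young libraries and 4.08 to 16.9 (median 12.2) in old ones. It rose by 2.62 ± 0.31 (adjusted p = 1.33e-07), with the lowest old library above the highest young one. Atp2a1, the SERCA pump of fast fibres, went the other way, with 6147 to 7656 (median 6494) in young and 4492 to 5339.6 (median 5171) in old libraries. It fell by 0.41 ± 0.11 (adjusted p = 0.00838) with no overlap. Casq1, the calsequestrin that stores calcium in fast fibres, fell by 0.43 ± 0.11 (adjusted p = 0.00604), with 1025 to 1335 (median 1170.3) in young and 811 to 918 (median 875) in old libraries, again without overlap. Camk2b, a subunit of the calcium/calmodulin-dependent kinase, rose by 0.63 ± 0.076 (adjusted p = 1.99e-07), with 22.3 to 25.8 (median 23.4) in young and 33 to 41.5 (median 37.3) in old libraries. In the list for calcium release and reuptake, 4 of 36 tested members rose and 6 fell, with a median change of 0.047 against -0.0056 over all nuclear protein-coding genes. Those shares are 11.1% and 16.7%, beside 10.8% and 12% of all genes. Kcnab1, an accessory subunit of voltage-gated potassium channels, measured 1.72 to 2.54 (median 2.09) in young and 8.47 to 11.4 (median 9.54) in old libraries. It rose by 1.78 ± 0.09 (adjusted p = 2.18e-15), with no overlap. Rrad, a small GTPase that restrains voltage-gated calcium channels, rose by 1.36 ± 0.28 (adjusted p = 0.000524), with 0.871 to 2.37 (median 1.65) in young and 3.6 to 9.59 (median 5.53) in old libraries. Atp1b2, a beta subunit of the sodium pump, fell by 0.61 ± 0.12 (adjusted p = 0.000412), with 42.6 to 62.8 (median 52.2) in young and 26.4 to 41.8 (median 34.3) in old libraries.

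Genes known to be switched on in fibres without nerve contact rose in part. Of 20 tested members of the denervation list, 7 rose (35%) and 1 fell (5%), beside 10.8% and 12% of all genes. The median change was 0.18, and -0.029 on unscaled TPM. Krt18 and Runx1 were below 1 scaled TPM in all young libraries, and Sln in most of them. A gene this low in young libraries can pass the filter through old ones, so this count is partly set by the filter. The 7 are Sln, described above, Krt18, Runx1, Ankrd1, Tnfrsf12a, and Gadd45a and Cdkn1a, which are described with growth arrest. Krt18, a simple-epithelial keratin, was low in young libraries, at 0.0223 to 0.472 (median 0.0993), and reached 1.7 to 5.05 (median 3.77) in old ones, a rise of 1.94 ± 0.30 (adjusted p = 1.21e-05). Runx1, a transcription factor induced by denervation, rose by 0.64 ± 0.096 (adjusted p = 9.58e-06), with 0.231 to 0.319 (median 0.272) in young and 0.544 to 1.46 (median 1.05) in old libraries. Both were separated between the ages. Ankrd1, a stress-induced titin-binding protein, rose by 1.49 ± 0.26 (adjusted p = 9.76e-05), with 0.823 to 4.37 (median 2.73) in young and 3.49 to 14.1 (median 10.1) in old libraries, and single libraries overlapped. Tnfrsf12a, the receptor of the cytokine TWEAK, rose by 0.69 ± 0.21 (adjusted p = 0.0161), with 6.76 to 12.9 (median 9.49) in young and 11.3 to 23.9 (median 15.7) in old libraries, and on unscaled TPM its change was 0.41 (adjusted p = 0.113), and with the length trend removed 0.56 (adjusted p = 0.0542). Myog, the myogenic factor that denervation strongly induces, was not among the risers: it measured 1.52 to 3.23 (median 2.33) in young and 1.09 to 4.9 (median 1.65) in old libraries, a difference of -0.11 ± 0.20 (adjusted p = 0.75). Myl4, the alkali light chain of embryonic muscle and atrium, rose by 1.21 ± 0.20 (adjusted p = 2.81e-05), with 3.51 to 5.27 (median 4.71) in young and 8.18 to 17 (median 11.8) in old libraries, and the ages did not overlap. Myh8, the perinatal myosin heavy chain, fell by 0.35 ± 0.054 (adjusted p = 1.84e-05), with 1.55 to 1.72 (median 1.62) in young and 0.849 to 1.26 (median 1.06) in old libraries, so Myl4 and Myh8 moved in opposite directions. In the list of developmental and regenerating fibre genes, 3 of 16 tested rose (18.8%) and 3 fell (18.8%), beside 10.8% and 12% of all genes.

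Of 16 tested genes of the neuromuscular receptor and synapse list, 2 rose (12.5%) and 3 fell (18.8%), beside 10.8% and 12% of all genes. Chrnb1, the beta subunit of the acetylcholine receptor, measured 9.84 to 12.7 (median 12.1) in young and 16.3 to 21.1 (median 17.4) in old libraries and rose by 0.57 ± 0.084 (adjusted p = 7.81e-06), with no overlap. Musk, the receptor kinase that gathers acetylcholine receptors under the nerve ending, rose by 0.51 ± 0.16 (adjusted p = 0.0217), with 2.35 to 4.41 (median 3.64) in young and 3.58 to 7.77 (median 5.54) in old libraries. That call was lost with a pseudocount of 0.1 (0.61, adjusted p = 0.0504), on unscaled TPM (0.27, adjusted p = 0.206), without the young library WT_5 (0.42, adjusted p = 0.0628) and without the old library WSO_28 (0.41, adjusted p = 0.0693). The alpha subunit Chrna1 was at 2.41 to 4.03 (median 2.72) and 2.54 to 4.95 (median 3.89), a difference of 0.30 ± 0.14 that was not called (adjusted p = 0.133) except with array weights (0.34, adjusted p = 0.0356). The adult epsilon subunit Chrne differed by -0.31 ± 0.18 (adjusted p = 0.211), with 7.46 to 17.4 (median 10.4) in young and 7.07 to 10.8 (median 8.52) in old libraries, and it was called lower on unscaled TPM (-0.59, adjusted p = 0.00457). The promoter windows of the 2 risers, which belong to one structure, are shown. They differ in CAGCTG, in capitals, a form of the E-box read by MyoD-family factors. Other forms read by these factors, among them caggtg in the Chrnb1 window, were not searched for. Each window holds the 250 bases before the transcription start of a RefSeq entry (GRCm38.p6). Chrnb1 lies on the minus strand of chr11:69795938-69796187 and Musk on the plus strand of chr4:58285712-58285961.
Chrnb1: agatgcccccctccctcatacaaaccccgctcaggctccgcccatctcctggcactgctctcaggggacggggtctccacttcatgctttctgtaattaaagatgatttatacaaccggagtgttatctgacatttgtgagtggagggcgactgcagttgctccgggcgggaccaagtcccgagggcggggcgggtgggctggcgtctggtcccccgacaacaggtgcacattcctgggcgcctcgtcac
Musk: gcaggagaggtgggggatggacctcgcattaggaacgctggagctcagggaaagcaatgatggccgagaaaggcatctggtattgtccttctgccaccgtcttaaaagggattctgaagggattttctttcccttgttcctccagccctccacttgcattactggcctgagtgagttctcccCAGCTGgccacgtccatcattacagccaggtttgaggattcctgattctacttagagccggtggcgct
The motif reads the same on both strands, occurs in 13.0% of 32851 such windows, and was found once in Musk and not in the Chrnb1 window. It was also found in the windows of Chrna1 and Chrne, which are not among the 2 risers. A match or its absence in these letters is a description only.

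Genes of growth arrest and the p53 pathway rose in part. Of 20 tested members, 8 rose (40%) and 2 fell (10%), beside 10.8% and 12% of all genes. Even so, the median change was 0.0022, and -0.19 on unscaled TPM, where 3 rose and 8 fell. Gadd45a, a DNA damage and denervation response gene, measured 9.94 to 15.9 (median 13.3) in young and 19.8 to 29.3 (median 25.9) in old libraries and rose by 0.89 ± 0.15 (adjusted p = 5.52e-05). Eda2r, a p53-induced receptor of the TNF family, rose by 0.89 ± 0.14 (adjusted p = 2.4e-05), with 2.62 to 4.32 (median 3.41) in young and 6.15 to 8.95 (median 7.1) in old libraries. Gadd45b rose by 0.96 ± 0.21 (adjusted p = 0.000991), with 3.4 to 7.54 (median 4.74) in young and 9.55 to 12.6 (median 11.3) in old libraries. All 3 were separated between the ages and were also rises on unscaled TPM. The cyclin-dependent kinase inhibitors were closer: Cdkn1a (p21) rose by 0.74 ± 0.22 (adjusted p = 0.0151), with 4.01 to 6.02 (median 4.34) in young and 5.66 to 12.8 (median 8.65) in old libraries, and Cdkn2c (p18) by 0.53 ± 0.13 (adjusted p = 0.00312), with 4.71 to 6.13 (median 5.43) in young and 6.96 to 10.9 (median 7.9) in old libraries. Neither was called on unscaled TPM, at 0.49 (adjusted p = 0.0909) and 0.27 (adjusted p = 0.0624). Whole-muscle RNA does not tell fibres from other cells, and here fewer cells of a type and less RNA per cell cannot be told apart.

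Several myosin heavy chain genes fell. Myh4, the heavy chain of the fastest (IIB) fibres and the leading myosin of this muscle, measured 7216 to 8994 (median 7989) in young and 4309.8 to 4977 (median 4739) in old libraries. It fell by 0.79 ± 0.077 (adjusted p = 4.16e-09), with every old library below every young one. Myh2, the heavy chain of IIA fibres, fell by 0.71 ± 0.16 (adjusted p = 0.00192), with 235 to 493 (median 435) in young and 185 to 279 (median 235) in old libraries. Myh1, of IIX fibres, differed by -0.41 ± 0.16 and just missed the threshold (adjusted p = 0.0553), with 382 to 642 (median 529.9) in young and 302 to 477 (median 356) in old libraries. It was called on unscaled TPM (-0.71, adjusted p = 0.000344), after quantile normalization (-0.69, adjusted p = 0.00473), with a filter at a mean of 5 TPM (-0.41, adjusted p = 0.0485) and when any one of WT_1, WT_6, WSO_14 or WSO_29 was left out, with changes of -0.49 to -0.47. Myh7, the slow heavy chain, fell by 1.33 ± 0.30 (adjusted p = 0.00181), with 64.8 to 268 (median 106) in young and 33.7 to 108 (median 37) in old libraries. The highest old value belonged to WSO_27 and the next was 47.5, below all young libraries. No myosin heavy chain gene named here was higher in old muscle. The list of fast-fibre genes had 5 falls and 1 rise among 18 tested members, with a median of -0.11, and that of slow-fibre genes had 1 fall, Myh7, among 14. Their summed levels overlapped between the ages, at 124591 to 144304 against 120002 to 136924 for fast and 2458 to 4874 against 3313 to 4945 for slow genes. Mylpf, the fast regulatory light chain, was the riser among the fast genes: it measured 13639.8 to 17526 (median 15521) in young and 17674 to 22731 (median 21329.7) in old libraries, and rose by 0.41 ± 0.13 (adjusted p = 0.0231). Its call was lost on unscaled TPM (0.11, adjusted p = 0.429), after quantile normalization (0.28, adjusted p = 0.0991), with the length trend removed (0.27, adjusted p = 0.16), without a filter (0.40, adjusted p = 0.113) and without WT_4 (0.37, adjusted p = 0.0588).

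Giant structural proteins of the sarcomere did not move together. Myom2, an M-band protein of fast fibres, fell by 0.44 ± 0.06 (adjusted p = 1.59e-06), with 306 to 341 (median 332) in young and 206 to 277 (median 243) in old libraries. Neb, the thin-filament ruler nebulin, fell by 0.52 ± 0.14 (adjusted p = 0.00805), with 1547 to 1716 (median 1603) in young and 981 to 1219.6 (median 1154) in old libraries. Both were separated between the ages, as was Ttn, which moved the other way. Ttn, the gene of titin, rose by 1.22 ± 0.17 (adjusted p = 1.79e-06), with 109 to 124 (median 120.4) in young and 165 to 328 (median 301) in old libraries. The lowest old value was again that of WSO_27, with the other 5 old libraries at 294 and above. The direction of Ttn turned when the rRNA share was added as a covariate, to -0.39 (adjusted p = 0.914), and that share itself did not overlap between the ages. Of 37 sarcomere genes tested, 6 rose (16.2%) and 9 fell (24.3%), beside 10.8% and 12% of all genes, with a median of -0.034. At the membrane, Vcl (vinculin) fell by 0.60 ± 0.12 (adjusted p = 0.000417), with 18.8 to 24.6 (median 19.7) in young and 11.6 to 14.6 (median 13.6) in old libraries, and Sgcd (delta-sarcoglycan of the dystrophin complex) rose by 0.96 ± 0.15 (adjusted p = 1.18e-05), with 2.92 to 3.78 (median 3.58) in young and 4.87 to 9.18 (median 8.46) in old libraries. Dync1h1, the heavy chain of the microtubule motor dynein, measured 25.4 to 38.6 (median 33.4) in young and 11.4 to 18.1 (median 14.2) in old libraries, and fell by 1.12 ± 0.12 (adjusted p = 1.71e-08).

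**Figure D3:**
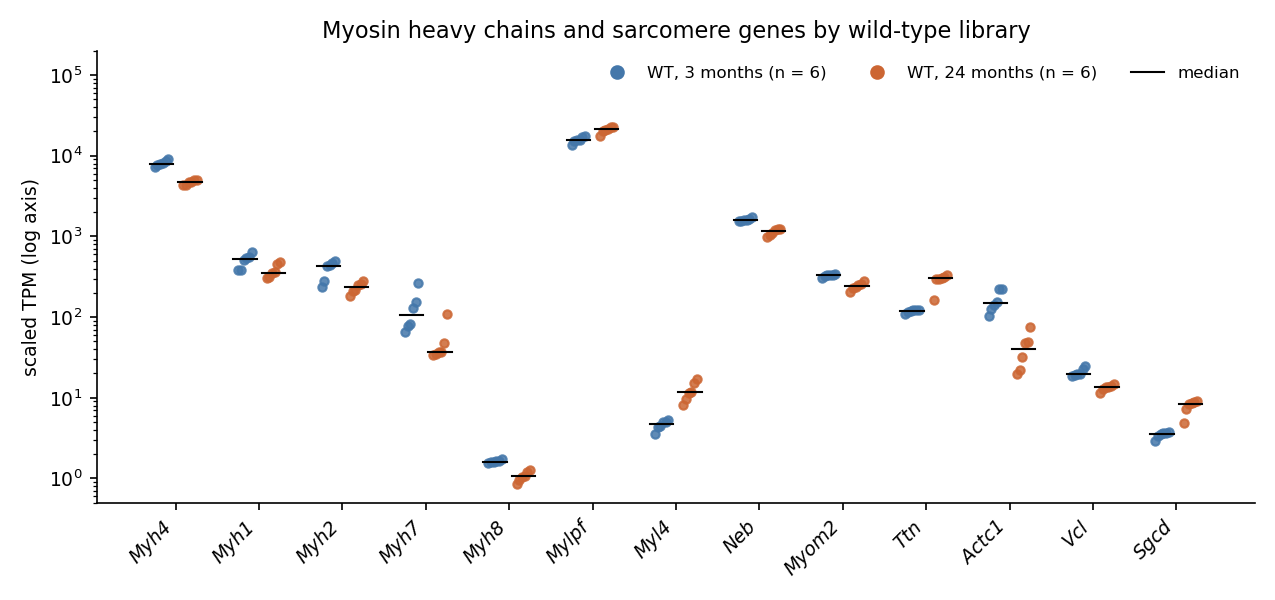
Scaled TPM of myosin heavy and light chains and sarcomere or membrane-link genes in each WT library, on a log axis; points are libraries (blue, 3 months; orange, 24 months) and lines are medians. Myh4, Neb, Myom2 and Vcl lie lower in all old libraries, and Ttn, Myl4 and Sgcd higher in all.

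Actc1, the alpha-actin of heart that fetal skeletal muscle also uses, had one of the largest separated falls. Actc1 (ENSMUSG00000068614, chromosome 2, 114047282 to 114053548, minus strand, GRCm38) measured 103 to 225 (median 148) in young and 19.6 to 75 (median 39.9) in old libraries, and fell by 2.05 ± 0.33 (adjusted p = 2.8e-05). Slc25a25, the calcium-sensitive carrier that exchanges ATP-Mg for phosphate across the inner mitochondrial membrane, had another. Slc25a25 (ENSMUSG00000026819, chromosome 2, 32414487 to 32451445, minus strand, GRCm38) measured 5.64 to 45.6 (median 16.2) in young and 2.58 to 4.3 (median 3.49) in old libraries, and fell by 2.08 ± 0.49 (adjusted p = 0.00247). The young values spread widely while the old ones were close together, and none overlapped. Their promoter windows are shown because each holds an element read by factors that respond to contraction or signalling. In Actc1 (chr2:114052876-114053125, minus strand, RefSeq, GRCm38.p6) the capitals mark a CArG box, bound by serum response factor. In 1 of the 3 RefSeq entries of Slc25a25 (chr2:32424067-32424316, minus strand) they mark the full cAMP response element TGACGTCA.
Actc1: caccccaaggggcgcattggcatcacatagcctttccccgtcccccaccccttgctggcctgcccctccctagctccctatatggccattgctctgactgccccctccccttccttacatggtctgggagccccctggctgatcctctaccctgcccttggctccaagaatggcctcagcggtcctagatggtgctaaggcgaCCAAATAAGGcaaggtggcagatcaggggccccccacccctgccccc
Slc25a25: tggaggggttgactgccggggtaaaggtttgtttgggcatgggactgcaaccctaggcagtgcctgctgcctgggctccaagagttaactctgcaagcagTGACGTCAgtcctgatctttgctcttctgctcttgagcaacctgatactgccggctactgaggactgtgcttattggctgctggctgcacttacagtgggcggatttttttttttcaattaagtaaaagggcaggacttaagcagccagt
Both motifs read the same on either strand as searched. A CArG box was found in 1.47% and the cAMP response element in 1.55% of the 32851 promoter windows. These matches are descriptions of the letters.

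Many immune genes rose, and markers of immune cells rose with them. Ccl8, a chemokine that draws monocytes, measured 0.36 to 0.982 (median 0.618) in young and 2.67 to 9.18 (median 4.69) in old libraries, and rose by 1.86 ± 0.24 (adjusted p = 9.29e-07) with no overlap. It was below 1 scaled TPM in all young libraries, and a gene this low there can pass the filter through old ones. Complement genes rose in 8 of 18 tested members (44.4%) and fell in none, with a median of 0.15, or -0.042 on unscaled TPM, where 7 were called higher. C4b, a central complement component, rose by 1.09 ± 0.19 (adjusted p = 7.62e-05), with 0.569 to 2.06 (median 1.59) in young and 3.08 to 5.41 (median 4.2) in old libraries. Its transcript is 96.0% identical to that of C4a, a close copy, so its reads may be shared. C1qa, a chain of the initiating complex made mainly by macrophages, rose by 0.68 ± 0.15 (adjusted p = 0.00168), with 4.12 to 6.54 (median 5.7) in young and 7.51 to 13.6 (median 9.15) in old libraries. C4b and C1qa were separated between the ages. Antigen presentation had 9 rises among 15 tested genes (60%) and no fall, with a median of 0.42. On unscaled TPM the median was 0.13, with 5 rises and 1 fall. H2-Q7, a non-classical class I gene in a family of close copies, rose by 0.91 ± 0.23 (adjusted p = 0.00493), with 1.04 to 4.81 (median 2.4) in young and 3.6 to 9.41 (median 4.64) in old libraries. Of 30 interferon-stimulated genes 3 rose (10%) and 1 fell (3.33%), so the share that rose was near that of all genes.

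Of 14 listed markers of neutrophils and mast cells, 6 were tested and 8 were too low. Those 6 were called higher, on unscaled TPM as well, but a gene can pass the filter on low values through the old libraries alone, so this count is partly set by the filter. S100a8 was below 1 scaled TPM in all young libraries, and S100a9 in 5 of 6. The other 4 are mast cell proteases. Cma1 (chymase) measured 1.06 to 1.86 (median 1.24) in young and 3.01 to 3.5 (median 3.29) in old libraries and rose by 0.89 ± 0.12 (adjusted p = 9.25e-07). Mcpt4, another chymase, measured 1.22 to 2.56 (median 1.64) in young and 3.44 to 5.17 (median 3.91) in old libraries and rose by 0.89 ± 0.12 (adjusted p = 1.16e-06). Tpsb2 (tryptase) rose by 0.74 ± 0.12 (adjusted p = 4.08e-05) and Cpa3 (carboxypeptidase A) by 0.61 ± 0.096 (adjusted p = 2.31e-05). Each of the 4 was higher in every old library than in any young one. S100a8, a subunit of neutrophil calprotectin, measured 0.198 to 0.588 (median 0.467) in young and 0.944 to 4.12 (median 2.29) in old libraries and rose by 1.22 ± 0.24 (adjusted p = 0.000454). Its partner S100a9 measured 0 to 1.25 (median 0.767) in young and 0.784 to 6.73 (median 4.1) in old libraries and rose by 1.43 ± 0.30 (adjusted p = 0.000676), with overlap. Summed over the 14 markers, the level was 5.63 to 9.65 in young and 14.7 to 26.3 in old libraries, with Elane at 0 in all. Of 19 tested macrophage markers, 10 rose (52.6%) and none fell, and the sum over the 22 listed was 53.02 to 81.2 in young and 90.6 to 145 in old libraries. Lymphocyte markers were mostly too low to test (3 of 22 tested, 1 rose), with a sum of 3.68 to 5.77 in young and 6.55 to 22.98 in old libraries. Blood markers moved as well: 3 of 6 tested rose, none of them on unscaled TPM, and the sum over the 8 listed was 349 to 519 in young and 470 to 997 in old libraries. The part of more immune cells or residual blood in the rises of complement and antigen presentation genes was not tested.

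**Figure D4:**
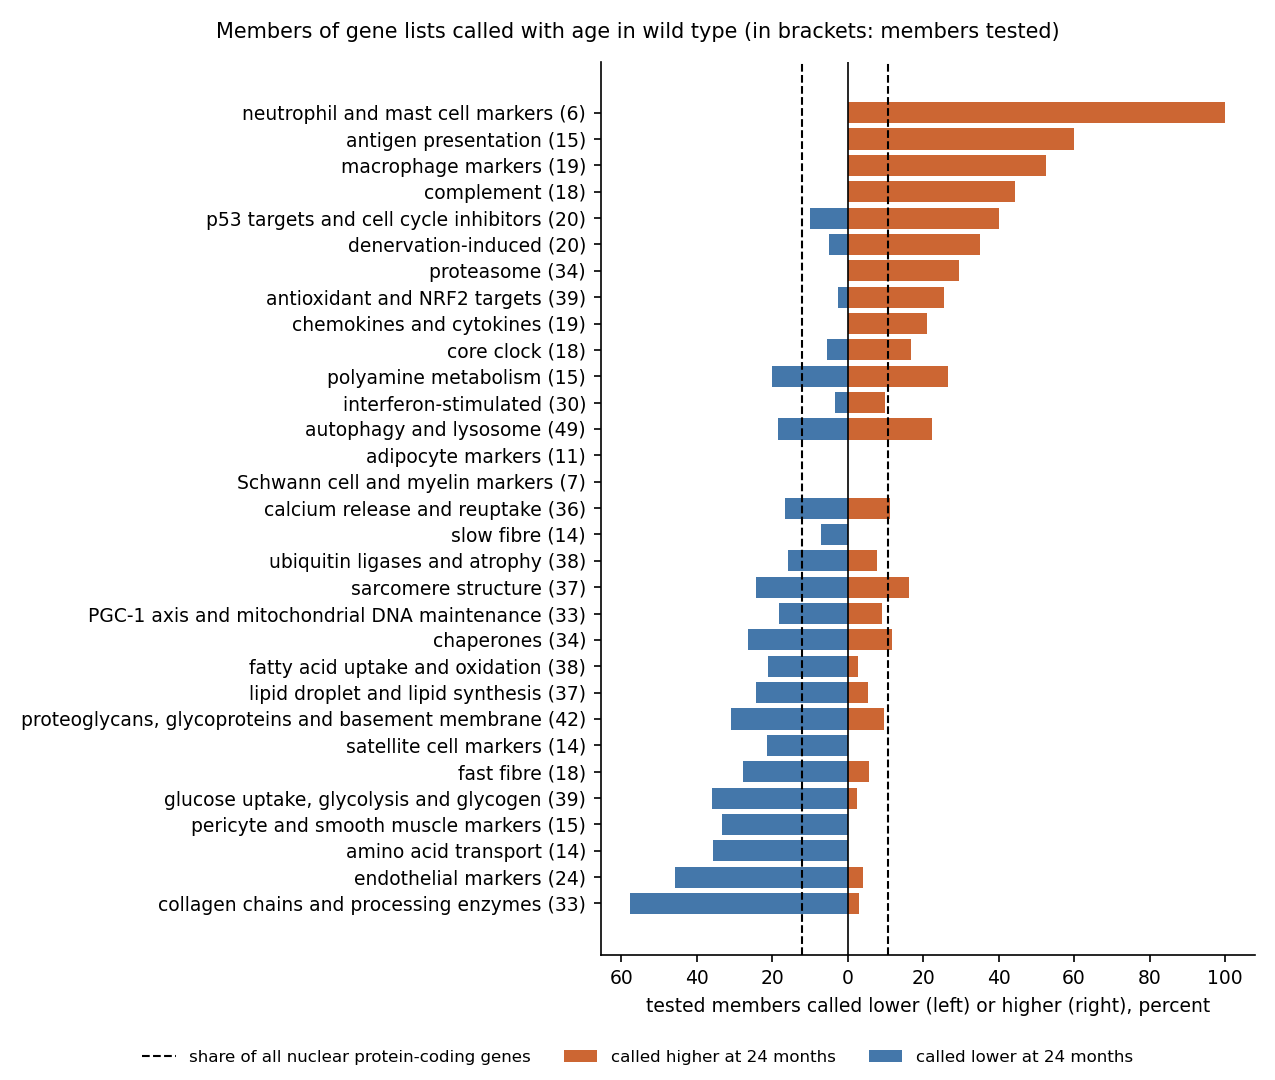
Percent of tested members of each gene list called lower (blue, left) or higher (orange, right) in old WT muscle, with the number of members tested in brackets; dashed lines mark the 12% lower and 10.8% higher of all nuclear protein-coding genes. Neutrophil and mast cell, antigen presentation, macrophage and complement lists stand to the right, at 44.4% to 100% higher, and collagen, endothelial and glucose lists to the left, at 35.9% to 57.6% lower.

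Of 15 tested polyamine genes, 4 rose (26.7%) and 3 fell (20%), with a median of 0.19. On unscaled TPM the median was -0.058, with no rise and 6 falls, so the balance depends on the scaling. Smox, spermine oxidase, measured 227 to 385 (median 358) in young and 89.8 to 164 (median 125) in old libraries, a fall of 1.38 ± 0.25 (adjusted p = 0.000128) with no overlap. Amd1, which makes the decarboxylated S-adenosylmethionine for polyamine synthesis, fell by 0.83 ± 0.18 (adjusted p = 0.00113), with 565 to 843 (median 692) in young and 313 to 543 (median 370.2) in old libraries. Its transcript is 99.6% identical to that of Amd2, so its reads may be shared. Mettl21c, a muscle lysine methyltransferase, fell by 1.13 ± 0.23 (adjusted p = 0.000633), with 81.1 to 138 (median 114) in young and 30 to 67.6 (median 53.8) in old libraries. Among the polyamine risers, named after their values were seen, Oaz2, an antizyme that restrains polyamine synthesis, rose by 0.34 ± 0.061 (adjusted p = 0.000109) and Atp13a3, a polyamine transporter, by 0.47 ± 0.11 (adjusted p = 0.00331). Amino acid transport had 5 falls among 14 tested genes (35.7%) and no rise, with a median of -0.28. Slc38a4, a system A carrier, fell by 0.93 ± 0.17 (adjusted p = 0.000195), with 37 to 59 (median 44.9) in young and 17.4 to 30.9 (median 22.5) in old libraries. Slc38a2, another system A carrier, fell by 0.77 ± 0.16 (adjusted p = 0.000954), with 21.3 to 29.3 (median 26) in young and 12.9 to 18 (median 14.4) in old libraries. Slc3a2, the heavy chain shared by several exchangers, fell by 0.72 ± 0.12 (adjusted p = 4.32e-05), with 15.3 to 20.3 (median 15.9) in young and 8.56 to 10.9 (median 9.5) in old libraries. All 3 carriers were lower in every old library.

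Genes of glucose use and stored lipid fell in part. In the glucose, glycolysis and glycogen list 14 of 39 tested genes fell (35.9%) and 1 rose, with a median of -0.19. Pkm, pyruvate kinase, fell by 0.49 ± 0.073 (adjusted p = 7.98e-06), with 1486 to 1663 (median 1550.5) in young and 962 to 1180.0 (median 1132) in old libraries. Ppp1r3c, which targets a phosphatase to glycogen, fell by 0.83 ± 0.20 (adjusted p = 0.00319), with 87.6 to 130.5 (median 104) in young and 52.5 to 81.3 (median 57) in old libraries. Both were separated between the ages. Plin3, a coat protein of lipid droplets, fell by 1.44 ± 0.18 (adjusted p = 2.93e-07), with 7.2 to 12.9 (median 10.7) in young and 2.06 to 5.82 (median 2.78) in old libraries. Srebf1, the transcription factor of fatty acid synthesis, fell by 0.84 ± 0.19 (adjusted p = 0.00136), with 16.3 to 29.3 (median 20.8) in young and 8.14 to 15.6 (median 11.7) in old libraries. Lpin1, a phosphatidate phosphatase, fell by 0.78 ± 0.14 (adjusted p = 0.00011), with 45.3 to 63.3 (median 53.2) in young and 20.9 to 40 (median 30.8) in old libraries. In all, 9 of 37 lipid droplet and synthesis genes fell (24.3%) and 2 rose (5.41%), beside 12% and 10.8% of all genes. Fatty acid uptake and oxidation had 8 falls among 38 (21.1%) and 1 rise (2.63%). Cpt2, the inner-membrane carnitine acyltransferase, fell by 0.56 ± 0.11 (adjusted p = 0.000345), Lpl (lipoprotein lipase) by 0.49 ± 0.14 (adjusted p = 0.0112) and the acyl-CoA synthetase Acsl1 by 0.55 ± 0.15 (adjusted p = 0.00769). The riser was Acsl6, another acyl-CoA synthetase: it measured 11 to 17.3 (median 14) in young and 25 to 31.6 (median 26.7) in old libraries, and rose by 0.90 ± 0.12 (adjusted p = 9.25e-07). Pdk4, the kinase that shuts off pyruvate dehydrogenase in fasting, varied widely, at 66.9 to 302 (median 209) in young and 35.9 to 178 (median 60.2) in old libraries. Its fall of 1.37 ± 0.43 (adjusted p = 0.0188) was lost without WSO_13 (-1.17, adjusted p = 0.0526). Feeding state at collection is not given in the sources used here. Amy1, an amylase that cuts starch and glycogen, rose by 1.251 ± 0.14 (adjusted p = 9.5e-08), with 14 to 20 (median 17.5) in young and 39.1 to 48 (median 41.3) in old libraries. Its exons overlap those of Rnpc3 on the same strand over 32.7% of its exon length, and Rnpc3 rose by 0.81 ± 0.12.

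Ppargc1a measured 4.82 to 15.2 (median 6.99) in young and 3.79 to 4.69 (median 4.17) in old WT libraries and fell by 0.70 ± 0.19 (adjusted p = 0.00746), with no overlap. Perm1, a muscle protein induced by PGC-1α and contraction, fell by 0.38 ± 0.097 (adjusted p = 0.00431), with 36.3 to 55.2 (median 43.3) in young and 27.5 to 38 (median 34) in old libraries. Twnk, the mitochondrial DNA helicase, fell by 0.27 ± 0.056 (adjusted p = 0.000658), with 5.53 to 6.18 (median 5.64) in young and 4.39 to 4.79 (median 4.54) in old libraries. Mss51, a muscle protein located at mitochondria and listed with them here, had one of the largest rises. Mss51 (ENSMUSG00000021815, chromosome 14, 20482867 to 20496901, minus strand, GRCm38) measured 11.8 to 30.2 (median 20.4) in young and 54.8 to 219 (median 118) in old libraries, and rose by 2.48 ± 0.31 (adjusted p = 4.29e-07). Of 33 genes of the PGC-1 axis and of mitochondrial DNA upkeep, 3 rose (9.09%) and 6 fell (18.2%), with a median of -0.10. Of all genes 10.8% rose and 12% fell.

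Proteasome subunits rose in 10 of 34 tested genes (29.4%) and fell in none, with a median of 0.19. On unscaled TPM that median was -0.11, with 1 rise and 6 falls, so the direction of this family depends on the scaling. Psmb3, a subunit of the core, rose by 0.70 ± 0.13 (adjusted p = 0.000229), with 75.4 to 91.7 (median 82.5) in young and 129.7 to 139 (median 134) in old libraries. Psma7, another, rose by 0.54 ± 0.11 (adjusted p = 0.000869), with 54 to 64.3 (median 61.6) in young and 82.2 to 97.1 (median 88.7) in old libraries, and was not called on unscaled TPM (0.24, adjusted p = 0.0625). Ubb, a polyubiquitin gene, rose by 0.42 ± 0.077 (adjusted p = 0.000182), a rise not called on unscaled TPM (0.12, adjusted p = 0.226) or after quantile normalization (0.18, adjusted p = 0.0638). Fbxo32 and Trim63, the ubiquitin ligases that mark acute atrophy, were at 32.2 to 46.7 (median 38.7) and 63.7 to 99.9 (median 84.8) in young and 34.9 to 45.7 (median 37.4) and 69 to 101 (median 80.5) in old libraries. On the scaled values their differences were -0.041 ± 0.10 (adjusted p = 0.815) and -0.028 ± 0.11 (adjusted p = 0.89), and on unscaled TPM both were called lower, at -0.33 (adjusted p = 0.0226) and -0.32 (adjusted p = 0.0303). The autophagosome proteins Map1lc3a and Gabarap rose by 0.66 ± 0.15 and 0.61 ± 0.12 (adjusted p = 0.00133 and 0.000239). The autophagy and lysosome list as a whole had 11 rises (22.4%) and 9 falls (18.4%) among 49, beside 10.8% and 12% of all genes. Chaperones fell in 9 of 34 tested genes (26.5%) and rose in 4 (11.8%), with a median of -0.14, or -0.42 with 22 falls and 2 rises on unscaled TPM. Hsph1, a large heat shock protein of the HSP110 class, fell by 0.96 ± 0.19 (adjusted p = 0.00035), with 22.4 to 47.7 (median 37.2) in young and 16 to 20.5 (median 16.9) in old libraries. Hspd1, the mitochondrial chaperonin, fell by 0.32 ± 0.057 (adjusted p = 0.000139), and Serpinh1, the collagen chaperone, by 0.83 ± 0.15 (adjusted p = 0.00011). Among the 4 risers were Hspb7, a small heat shock protein of muscle, by 0.73 ± 0.15 (adjusted p = 0.000715), with 35.1 to 73.8 (median 60.1) in young and 67.3 to 119 (median 96.5) in old libraries, and Hspb3, another, by 0.60 ± 0.14 (adjusted p = 0.00176), with 20.1 to 25.5 (median 20.6) in young and 28.2 to 36.6 (median 33.5) in old libraries. Antioxidant genes rose in 10 of 39 tested members (25.6%) and 1 fell, with a median of 0.14, or -0.14 with 4 rises and 12 falls on unscaled TPM. Gpx3, the secreted glutathione peroxidase, rose by 0.99 ± 0.17 (adjusted p = 9.66e-05), with 44.1 to 70.4 (median 53.9) in young and 95.6 to 129 (median 111) in old libraries. Aldh1a1, a retinal and aldehyde dehydrogenase, rose by 0.83 ± 0.092 (adjusted p = 3.96e-08), with 39.4 to 51.2 (median 44.5) in young and 59.1 to 89.5 (median 82.6) in old libraries. Prdx2 rose by 0.65 ± 0.13 (adjusted p = 0.000624) and Gpx4, which has a near-identical pseudogene, by 0.57 ± 0.11 (adjusted p = 0.000227). All 4 were separated between the ages and were also called on unscaled TPM.

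Many matrix and vessel genes fell. Col1a1 measured 10.6 to 20.7 (median 13.1) in young and 3.4 to 5.84 (median 3.88) in old libraries, a fall of 1.57 ± 0.13 (adjusted p = 1.17e-10). Col1a2 fell by 1.45 ± 0.15 (adjusted p = 1.51e-08), with 21.6 to 38.5 (median 25.9) in young and 7.24 to 13.2 (median 9.03) in old libraries, Col3a1 fell by 1.20 ± 0.14 (adjusted p = 1.15e-07), and 19 of 33 collagen and collagen-processing genes fell (57.6%) with 1 rise. Col4a1, the network-forming collagen of basement membrane, fell by 1.12 ± 0.13 (adjusted p = 1.4e-07), with 18 to 24.3 (median 21.8) in young and 7.63 to 10.4 (median 9.74) in old libraries. Lamc1, the common laminin gamma chain, fell by 0.78 ± 0.092 (adjusted p = 1.15e-07), with 17.4 to 22.4 (median 19.2) in young and 9.47 to 12 (median 10.8) in old libraries. Nid1, which joins laminin to collagen IV, fell by 0.68 ± 0.19 (adjusted p = 0.00912), with 10.7 to 13.7 (median 12.7) in young and 5.49 to 10.2 (median 7.03) in old libraries. In these 3 every old library was below every young one. Lamb1 fell by 0.50 ± 0.068 (adjusted p = 1.68e-06), Fn1 (fibronectin) by 0.58 ± 0.14 (adjusted p = 0.00342), Eln (elastin) by 0.60 ± 0.11 (adjusted p = 0.000102) and Hspg2 (perlecan) by 0.52 ± 0.11 (adjusted p = 0.000648). Of 42 proteoglycan, glycoprotein and basement membrane genes, 13 fell (31.0%) and 4 rose (9.52%). Among the risers were Cilp, a cartilage-type matrix protein that antagonises TGF-beta, by 0.80 ± 0.18 (adjusted p = 0.00189), and the fibulin Efemp1 by 0.51 ± 0.095 (adjusted p = 0.000176). Apod, a lipid-binding lipocalin, rose by 1.161 ± 0.17 (adjusted p = 7.47e-06), with 14.3 to 27.1 (median 20.9) in young and 34.5 to 64.7 (median 49.1) in old libraries, and Dkk3, a secreted Dickkopf protein, by 1.34 ± 0.15 (adjusted p = 6.65e-08), with 1.13 to 2.75 (median 1.7) in young and 3.87 to 11.9 (median 6.12) in old libraries. Smad3, the TGF-beta signal carrier, fell by 0.60 ± 0.10 (adjusted p = 6.24e-05), and Gdf11, a ligand related to myostatin, rose by 0.74 ± 0.12 (adjusted p = 1.7e-05), with 1.44 to 2.55 (median 2) in young and 2.78 to 5.52 (median 4.11) in old libraries. Markers of fibro-adipogenic progenitors, which make collagen, fell in 3 of 18 tested and rose in 1, with summed levels of 599 to 808 in young and 661 to 768 in old libraries. Endothelial markers fell in 11 of 24 (45.8%) and rose in 1, while their sum overlapped, at 369 to 431 and 354 to 450. Eng (endoglin) fell by 0.62 ± 0.13 (adjusted p = 0.000633) and Tie1, an endothelial receptor kinase, by 0.41 ± 0.053 (adjusted p = 5.94e-07), with 5.28 to 6.39 (median 5.84) in young and 3.98 to 4.58 (median 4.02) in old libraries. Myh11, the smooth muscle myosin, fell by 0.62 ± 0.095 (adjusted p = 1.2e-05), with 4.93 to 6.09 (median 5.54) in young and 2.43 to 4.8 (median 3.1) in old libraries. Of 15 pericyte and smooth muscle markers, 5 fell and none rose. None of 11 adipocyte and 7 Schwann cell markers tested was called by limma. Satellite cell markers fell in 3 of 14 tested (21.4%) and rose in none, beside 12% and 10.8% of all genes. Their summed level overlapped, at 775 to 871 (median 828) in young and 778 to 911 (median 850) in old libraries. Tendon cell markers fell in 2 of 9 tested (22.2%) and rose in none, with a median of -0.35 and a summed level of 41.1 to 109 (median 67.4) in young and 39.1 to 54.5 (median 50.4) in old libraries. The part of vessel, tendon or connective tissue content in these falls was not tested.

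Nfil3, a repressor in the clock's output loop, fell by 1.05 ± 0.25 (adjusted p = 0.00314), with 8.11 to 13.4 (median 9.2) in young and 3.1 to 6.28 (median 4.18) in old libraries. Cry2, a core repressor, rose by 0.60 ± 0.081 (adjusted p = 1.63e-06), with 5.1 to 6.44 (median 5.64) in young and 8 to 10.1 (median 9.21) in old libraries. Both were separated between the ages. Ciart, a further repressor, rose by 0.84 ± 0.23 (adjusted p = 0.00817), with 1.48 to 3.41 (median 2.13) in young and 3.11 to 6.23 (median 4.95) in old libraries. Dbp, an output gene, measured 22.5 to 35.8 (median 29.1) in young and 37.5 to 54.9 (median 44) in old libraries without overlap, but its difference of 0.61 ± 0.26 missed the threshold (adjusted p = 0.0844) except in a fit of the 12 WT libraries alone (0.61, adjusted p = 0.00198). The clock list had 3 rises (16.7%) and 1 fall (5.56%) among 18 tested genes, beside 10.8% and 12% of all genes. The hour of collection is not given in the sources used here. The Ciart window (chr3:95882229-95882478, minus strand, RefSeq, GRCm38.p6) is shown for its run of clock E-boxes CACGTG, in capitals, the site of CLOCK and BMAL1.
Ciart: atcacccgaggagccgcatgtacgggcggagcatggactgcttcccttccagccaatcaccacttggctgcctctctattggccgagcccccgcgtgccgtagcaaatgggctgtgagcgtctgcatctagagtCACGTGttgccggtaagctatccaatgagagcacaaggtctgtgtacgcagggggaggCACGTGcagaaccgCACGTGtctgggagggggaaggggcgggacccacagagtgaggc
It holds 3 matches, and 6.02% of the 32851 promoter windows hold at least 1. Fkbp5, a co-chaperone induced by glucocorticoids, fell by 1.12 ± 0.22 (adjusted p = 0.000443), with 7.32 to 17.1 (median 12.1) in young and 3.3 to 6.77 (median 5.58) in old libraries. In the immediate early and activity-responsive list 2 of 24 tested genes rose (8.33%) and 5 fell (20.8%), beside 10.8% and 12% of all genes. The median was -0.079, and on unscaled TPM none rose and 8 fell. Klf4, an early response factor, fell by 0.82 ± 0.23 (adjusted p = 0.0109), with 3.32 to 9.45 (median 4.15) in young and 1.93 to 3.02 (median 2.44) in old libraries. Junb, another, rose by 0.61 ± 0.17 (adjusted p = 0.0112), with 1.31 to 2 (median 1.74) in young and 2.76 to 3.51 (median 3.09) in old libraries, and was not called on unscaled TPM (0.41, adjusted p = 0.0628). Genes outside these groups also changed. Cpne2, a calcium-dependent membrane-binding copine, measured 2.51 to 4 (median 3.3) in young and 7.9 to 14.5 (median 11) in old libraries and rose by 1.49 ± 0.22 (adjusted p = 8.57e-06). Falls were seen for the arrestin-like Arrdc2 (-1.40 ± 0.41, adjusted p = 0.0137) and the membrane protein Myadm (-1.10 ± 0.15, adjusted p = 2.73e-06). As for Slc25a25, the highest young values of Arrdc2 were those of WT_1 and WT_2 (19.8 and 25.7), with the others at 6.21 to 10.7. Klf4 had the same pattern, at 7.59 and 9.45 in WT_1 and WT_2 and 3.32 to 4.34 in the other young libraries. Leaving out both libraries at once was not tested.

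Ageing in the other genotypes was measured in separate libraries. The share of nuclear rRNA genes was larger at 24 months in these as well. Its median went from 0.213% to 4.68% in the libraries labelled mKO and from 0.105% to 0.701% in mTG. The part of this shift in the shared calls and in the differences between genotypes was not tested. Of the 1170 genes that rose in WT, 245 (20.9%) were also called higher with age in the libraries labelled mKO, where 5.71% of all genes were, and 299 (25.6%) in mTG, where 6.45% were. Of the 1306 that fell, 240 (18.4%) were also called lower in the libraries labelled mKO (5.28% of all genes) and 387 (29.6%) in mTG (8.22%). In all 3 genotypes 103 genes rose and 124 fell. Sln rose by 2.17 ± 0.32 in the libraries labelled mKO and 2.36 ± 0.31 in mTG (adjusted p = 1.54e-05 and 2.32e-06). Mss51 rose by 2.67 ± 0.33 and 1.98 ± 0.31 (adjusted p = 5.24e-07 and 4.43e-05), and Col1a1 changed by -1.54 ± 0.14 and -1.80 ± 0.13 (adjusted p = 1.01e-09 and 1.48e-11). Cpne2, Amy1, Eda2r, Cry2 and Mettl21c were called in the direction of WT in both other genotypes too.

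Other WT changes differed between genotypes when the age effects themselves were compared. The age effect differed from that of WT in 473 nuclear protein-coding genes (4.35%) in the libraries labelled mKO, with 285 above WT (2.62%) and 188 below (1.73%), and in 328 (3.02%) in mTG, with 188 above (1.73%) and 140 below (1.29%). Both comparisons subtract the same WT age effect, so they are not independent. The count for mKO was 261 without the young library WT_2 and 315 without WT_4. Kcnab1 rose in WT and in the libraries labelled mKO (1.39 ± 0.094, adjusted p = 3.19e-12), but in mTG it differed by 0.14 ± 0.09 (adjusted p = 0.281), and the mTG effect minus that of WT was -1.63 ± 0.13 (adjusted p = 4.49e-10). Dkk3 had the same pattern, with a difference in mTG of -1.25 ± 0.22 (adjusted p = 0.000523). Ostn, a secreted muscle and bone factor, rose in WT by 0.77 ± 0.14 (adjusted p = 0.000147) and in mTG by 2.78 ± 0.14, a difference of 2.01 ± 0.20 (adjusted p = 1.27e-07). Myh4 fell in WT and stood at -0.24 ± 0.081 (adjusted p = 0.0555) and 0.066 ± 0.077 (adjusted p = 0.588) in the libraries labelled mKO and in mTG, with differences from WT of 0.55 ± 0.11 and 0.85 ± 0.11 (adjusted p = 0.00614 and 1.46e-05). Myom2 and Dync1h1 likewise fell in WT with age effects near 0 in the other genotypes, and each difference was called. For Dync1h1 the differences were 0.97 ± 0.17 and 0.94 ± 0.17 (adjusted p = 0.00242 and 0.000746). Actc1 fell by 1.76 ± 0.35 in the libraries labelled mKO (adjusted p = 0.00074) and stood at -0.24 ± 0.33 in mTG, with a difference of 1.81 ± 0.47 (adjusted p = 0.024). Slc25a25 stood at -0.29 ± 0.51 and -0.54 ± 0.49, but with its wide spread the differences from WT, 1.78 ± 0.71 and 1.54 ± 0.69, were not called (adjusted p = 0.128 and 0.231). The mast cell protease Mcpt4 rose in WT and in neither other genotype, with differences for Mcpt4 of -0.76 ± 0.17 and -0.81 ± 0.17 (adjusted p = 0.011 and 0.00363). S100a9 rose in WT and mTG (1.77 ± 0.30, adjusted p = 0.000114) but stood at -0.085 ± 0.31 in the libraries labelled mKO, a difference of -1.52 ± 0.43 (adjusted p = 0.0382). Among genes with a small p for a difference in the libraries labelled mKO were Ubr4, a very large ubiquitin ligase, at 0.97 ± 0.14, Wfs1, a membrane protein of the endoplasmic reticulum, at 0.96 ± 0.16, and Rab4a, an endosomal GTPase, at -0.94 ± 0.19 (adjusted p = 0.000223, 0.0016 and 0.00566). Ubr4 fell by 0.75 ± 0.094 and Wfs1 by 0.58 ± 0.11 in WT, and Rab4a rose by 1.03 ± 0.13 (adjusted p = 5.48e-07, 0.00031 and 4.22e-07). The age effect depended on transcript length in opposite directions in WT (Spearman's rho = -0.25 across genes) and the libraries labelled mKO (rho = 0.28). In mTG the direction was that of WT (rho = -0.38). Dync1h1 and Ubr4 have long transcripts. The part of length in these differences was not tested.

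**Figure D5:**
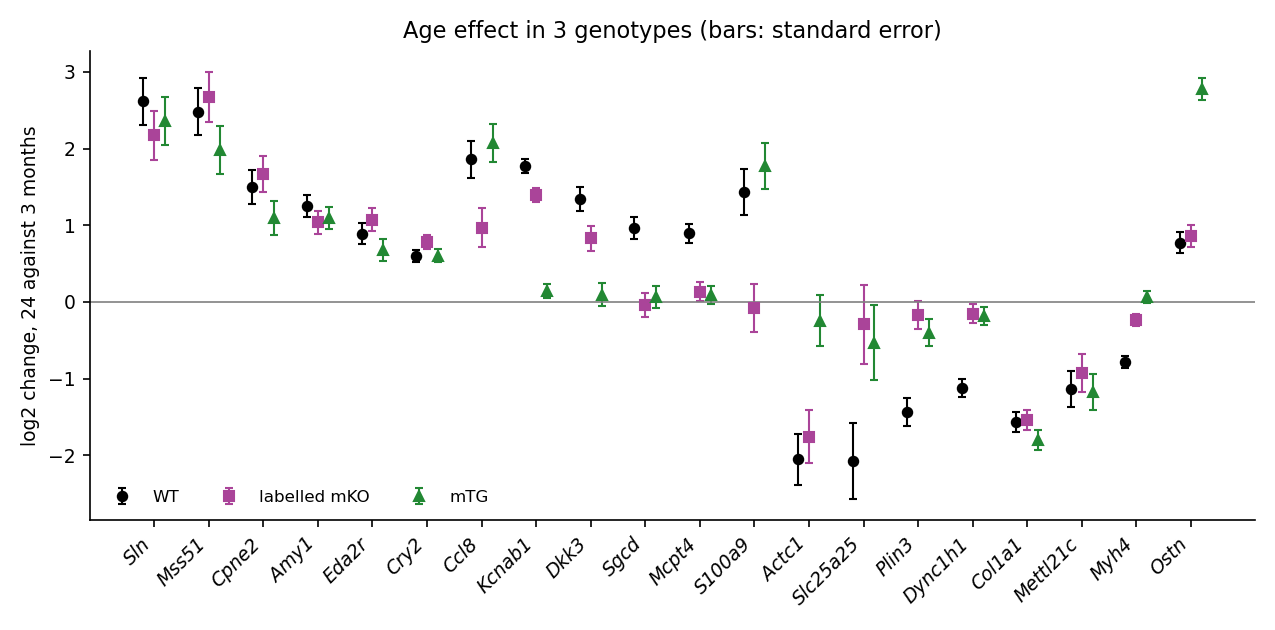
Log2 change with age (24 against 3 months) of 20 genes in WT (black circles), libraries labelled mKO (purple squares) and mTG (green triangles), with standard errors as bars. Sln, Mss51, Cpne2, Amy1, Eda2r, Cry2, Col1a1 and Mettl21c lie on the same side of 0 in the 3 genotypes, while Kcnab1 and Dkk3 stand near 0 in mTG and Myh4 and Dync1h1 stand apart in WT.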

How the data were processed

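RNA of mouse gastrocnemius was sequenced from libraries made with the TruSeq v2 kit, per the labels' protocols, which state no strand marking. The authors deposited 1 table of TPM for 54416 gene IDs and 35 libraries. Per the submitters' processing notes the tools were cutadapt 1.16, Salmon 1.1.0 and edgeR with genome build GRCm38; their settings are not given in the sources used here. TPM keep no depth, so the number of reads behind a value is not known. Column names give genotype but no age, and prefixes without and with SO were read as 3 and 24 months. For 54163 IDs a GENCODE M21 entry gave symbol, position and type, and 253 had none.

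Genes with a TPM of at least 1 in at least 5 libraries were kept (12399, of which 10876 were nuclear protein-coding). TPM were divided by median-of-ratios factors and analysed as log2(TPM + 1) with limma 3.58.1 in R 4.3.3. The fit held the means of 6 groups and used all 35 libraries, a mean-dependent variance, 2-sided tests and Benjamini-Hochberg adjustment over the 12399 genes. All adjusted p-values are from limma unless an exact permutation test is named. On simulated data with known changes the fit recovered 54% of 1.25-fold, 92% of 1.5-fold and 98% of 2-fold and 3-fold changes. The changed genes had mean levels above about 5 scaled TPM, so these shares do not cover lower genes. The simulation held no rRNA shift and no length trend. Shared transcript sequence was sought with blastn 2.17.0 (at least 95% identity over at least 50% of the transcript), and promoters were taken from RefSeq (GRCm38.p6), which held 98 of the 118 named genes. Named were the 14 largest rises and the 14 largest falls with separated libraries and a mean of at least 5 scaled TPM in a WT group, the list members with the smallest adjusted p, Ppargc1a, and up to 6 genes per direction with the smallest adjusted p for each difference of the age effect. Some genes that met this rule are not reported here. The members and the 47 gene lists were chosen with earlier results of these data known. Alternatives covered scaling, pseudocount (0.1), filter, libraries in the fit, array weights, rRNA share, length trend, a 1.5-fold minimum and leaving out each WT library.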

Additional observations from a re-analysis of the deposited data

Results flagged for a closer look

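Some named genes had 1 library far from the other 5 of its group (a gap to the nearest library that is large against the range of the group). This held in 14 of 242 sets of 6 libraries (5.79%; the 118 named genes and 3 shares of the TPM total in each WT group), and chance flags about 1 in 20 groups. Among old libraries, a single low scaled TPM was seen for Aldh1a1 (59.1 in WSO_15, next 81.0), Pkm (962 in WSO_27, next 1099) and Ttn (165 in WSO_27, next 294). Among old libraries, a single high scaled TPM was seen for Amd1 (543 in WSO_28, next 392), Col1a1 (5.84 in WSO_14, next 4.29), Dkk3 (11.9 in WSO_15, next 6.76), Hspg2 (18.1 in WSO_27, next 13.9), Myh7 (108 in WSO_27, next 47.5), Myog (4.90 in WSO_29, next 2.36) and Ppp1r3c (81.3 in WSO_13, next 60.6). Among young libraries, a single high scaled TPM was seen for Chrna1 (4.03 in WT_5, next 2.96), Cma1 (1.86 in WT_6, next 1.31), Krt18 (0.472 in WT_5, next 0.139) and Slc3a2 (20.3 in WT_1, next 16.9). WSO_27 was the library that stood apart for Hspg2, Myh7, Pkm and Ttn.

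For 49 named comparisons the age effect of another genotype differed from that of WT by its own test (adjusted p under 0.05, limma). The 118 named genes were each compared in both other genotypes. Over all nuclear protein-coding genes the share was 4.35% in the libraries labelled mKO and 3.02% in mTG. Some named genes were chosen for a small p in this same difference and others for a large WT change, so the count is partly set by that choice. All 49 comparisons share the WT libraries. In the libraries labelled mKO the age effect lay above that of WT, on the log2 scale, for Atp1b2 (0.68), Chrna1 (0.77), Dync1h1 (0.97), Myadm (0.84), Myh11 (0.53), Myh2 (1.1), Myh4 (0.55), Myh8 (0.40), Myom2 (0.50), Neb (0.82), Perm1 (0.50), Plin3 (1.27), Ubr4 (0.97), Vcl (0.65) and Wfs1 (0.96). In the libraries labelled mKO the age effect lay below that of WT, on the log2 scale, for Apod (-0.97), C1qa (-0.78), Cma1 (-0.58), Cpa3 (-0.55), Gdf11 (-0.69), Mcpt4 (-0.76), Rab4a (-0.94), S100a8 (-1.37), S100a9 (-1.52), Sgcd (-1.01) and Tpsb2 (-0.63). In mTG the age effect lay above that of WT, on the log2 scale, for Actc1 (1.81), Atp2a1 (0.62), Dync1h1 (0.94), Myh11 (0.58), Myh2 (0.80), Myh4 (0.85), Myh7 (1.67), Myh8 (0.48), Myom2 (0.56), Ostn (2.01), Pkm (0.45), Plin3 (1.04), Slc3a2 (0.60), Srebf1 (1.08) and Ubr4 (0.69). In mTG the age effect lay below that of WT, on the log2 scale, for Cpa3 (-0.54), Dkk3 (-1.25), Gdf11 (-0.80), Kcnab1 (-1.63), Lars2 (-2.87), Mcpt4 (-0.81), Sgcd (-0.90) and Ttn (-0.85).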

How the results depend on the processing

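No paired analysis was possible because the columns carry no replicate numbers shared between the groups. The 1170 rises became 290 on unscaled TPM, 1784 with array weights, 2 with the rRNA share as a covariate and 205 with a 1.5-fold minimum, and 965 to 1112 when each WT library was left out. The 1306 falls became 5103, 1857, 3 and 136 under the same settings, and 1074 to 1255 with a library left out. The rRNA share does not overlap between the WT ages, so that covariate shares the age difference. The 473 differences for the libraries labelled mKO became 2894 on unscaled TPM, 761 after quantile normalization, 272 without a filter, 1047 with array weights, 161 with the rRNA share, and 261 (without WT_2) to 541 with a library left out. The 328 differences for mTG became 2012 on unscaled TPM, 769 with array weights, 20 with the rRNA share, and 238 to 372 with a library left out. The rRNA difference of 5.37 ranged from 5.25 to 5.57 with a library left out (exact permutation p = 0.00433). Of the 111 called among 118 named genes, 108 kept call and direction whichever WT library was left out. Many of these genes were chosen for separated ages or a small adjusted p in these same libraries, so that count is partly set by the choice. With the rRNA share as a covariate the direction turned for Aarsd1 (-0.53), C4b (-0.096), Cdkn2c (-0.056), Chrna1 (-0.20), Cpt2 (0.048), Hsph1 (0.12), Map1lc3a (-0.013), Pdk4 (0.59) and Ttn (-0.39). Fbxo32, which was not called, turned to 0.0016 with the length trend removed, 0.0074 without WT_1 and 0.0018 without WT_5 (lowest value with a library left out -0.097). Trim63, not called either, turned to 0.023 without WT_1, 0.011 without WT_2, 0.0069 without WSO_27 and 0.021 without WSO_29 (lowest -0.11). On unscaled TPM both were called lower (-0.33 and -0.32, adjusted p = 0.0226 and 0.0303). Other causes were not tested. Depth could not be weighed, since TPM keep none.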
